A study of Caenorhabditis elegans with 16 samples.

Results

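The proteasome subunit genes of Caenorhabditis elegans were taken as all protein-coding genes of the deposited count table whose names begin with pas, pbs, rpt or rpn followed by a number. This rule used names only and found 33 genes among 47029 listed genes, of which 19994 were protein coding. They comprise 14 genes of the core particle, with 7 alpha ring genes (pas) and 7 beta ring genes (pbs), and 19 genes of the regulatory particle. The regulatory particle genes comprise 6 ATPase ring genes (rpt), 4 genes for base scaffolds and ubiquitin receptors (rpn-1, rpn-2, rpn-10 and rpn-13) and 9 lid genes. All 33 matched a RefSeq gene of the same symbol. They lie on 5 chromosomes, with 10 on chromosome I, 7 on II, 8 on III, 3 on IV and 5 on V. All 33 passed the filter on low counts.

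The proteasome degrades proteins that carry ubiquitin chains. Its regulatory particle binds the chain, removes it and unfolds the substrate with a ring of ATPases, and its core particle cleaves the unfolded chain inside a chamber formed by rings of beta subunits and gated by rings of alpha subunits. In C. elegans, as in mammals and yeast, subunit genes tend to be transcribed together. The worm factor SKN-1A, an isoform of skn-1 related to mammalian NRF1, raises their expression when proteasome activity is impaired.

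All groups, the control included, were SS104 worms, whose temperature-sensitive allele glp-4(bn2) leaves them sterile, and all were shifted to the restrictive temperature as larvae. Larvae of the L4 stage were placed on lawns of Escherichia coli OP50 without addition (control), with curcumin phytosome at 5 mg/mL, with sulforaphane at 0.625 mg/mL, or with both at these doses (combination). On adult day 3 whole animals were collected, and polyA RNA was sequenced from 4 replicates per group, which the series describes as independent biological replicates. Since no vehicle is named for untreated worms, carrier and compound cannot be told apart, and no strain with a normal germline was included.

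Total counts ranged from 14315538 to 19964755 per library. Yolk protein (vitellogenin) genes took 19.1% to 20.0% of the counts in control libraries, 19.3% to 20.1% with sulforaphane, 21.6% to 23.9% with curcumin and 22.7% to 24.5% with the combination. Combination replicate 3 stood apart, with 1.52% of its counts on mitochondrial genes against 0.874% to 1.26% in the other 15 libraries. Calls that the combination gained or lost without this library are named beside its results. All 12 germline marker genes had reads, and their summed CPM (counts relative to the scaled library size) was 304 to 468 over all libraries. The 5 intestinal markers summed to 975 to 1144 CPM in control, 1117 to 1303 with sulforaphane, 715 to 801 with curcumin and 654 to 725 with the combination.

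In untreated worms 32 of the 33 genes were expressed within a 3.46-fold range. The level per length, as the authors' FPKM (fragments relative to gene length and depth), ranged from 35.7 ± 2.68 for pas-7 to 123.6 ± 5.44 for pas-3 (SD, n = 4). The exception was rpn-6.2, a paralog of the lid gene rpn-6.1, at 5.40 ± 0.811 FPKM against 65.1 ± 1.51 FPKM for rpn-6.1. The median over the 33 genes was 59.3 FPKM, against 7.72 FPKM over all 14328 tested genes. The core particle genes had a median of 73.0 FPKM and the regulatory particle genes one of 55.6 FPKM. The 6 ATPase subunits, which occupy 1 place each in their ring, lay between 48.18 FPKM for rpt-6 and 62.4 FPKM for rpt-2, a spread of 1.29-fold. Among the catalytic beta subunits the order was pbs-1 (caspase-like activity in yeast and mammals) at 96.1 ± 6.99 FPKM, pbs-5 (chymotrypsin-like) at 79.7 ± 0.843 FPKM and pbs-2 (trypsin-like) at 43.9 ± 0.824 FPKM (SD, n = 4). Neighbours in the whole order could lie closer than their SD, as rpt-3, pas-1 and pbs-6 did at 60.0, 59.3 and 59.3 FPKM. Reads that rpn-6.1 and rpn-6.2 could share were not examined.

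**Figure D1:**
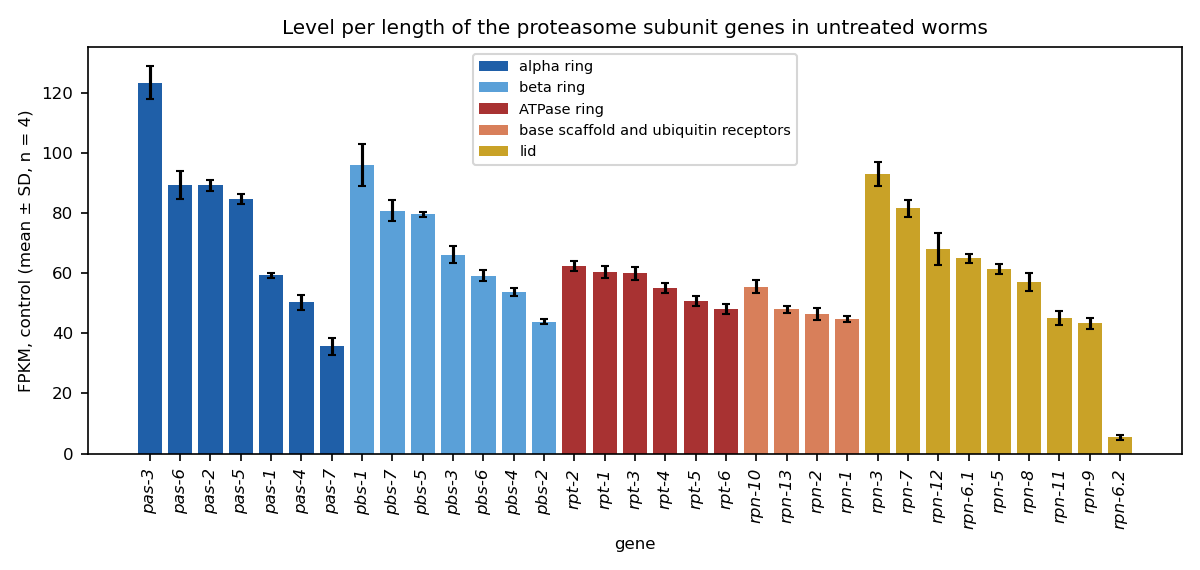
FPKM of each of the 33 genes in the 4 control libraries (bars, mean; whiskers, SD, n = 4), grouped by place in the proteasome and ordered by level. All bars but that of rpn-6.2 stand between 35.7 and 123.6 FPKM, and the ATPase ring genes stand close together.

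With sulforaphane alone, nearly every gene of the set had a slightly higher mean than in control. The log2 change against control was above 0 for 32 of 33 genes, against 46.0% of all tested genes. Its median was 0.15, or 11.1% higher, while the median over all tested genes was -0.02. At an adjusted p under 0.05 (edgeR quasi-likelihood test, Benjamini-Hochberg adjustment over 14328 genes), 6 of the 33 genes rose and 0 fell, against 6.71% of all tested genes called and 4.33% called higher. The 6 genes were pas-2, pas-4, pbs-5 and pbs-7 of the core particle and rpn-7 and rpn-13 of the regulatory particle. For 19 of the 33 genes all 4 sulforaphane libraries lay above all 4 control libraries, against 7.83% of all tested genes. No gene changed by as much as 1.5-fold, and the 95% interval of every one of the 33 lay within a 1.5-fold change in either direction.

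The shift was also seen in the share of all counts, where libraries are scaled by their total count alone. The 33 genes together took 0.287% to 0.299% of all counts in the sulforaphane libraries, above 0.259% to 0.283% in the control libraries, with no overlap. They took 0.261% to 0.271% with curcumin and 0.274% to 0.284% with the combination. Per library, the median log2 CPM of the 33 genes relative to the control mean was 0.21, 0.15, 0.14 and 0.13 in sulforaphane replicates 1 to 4, while the control libraries ran from -0.02 to 0.03. Sulforaphane replicate 1 was the highest of the 4 in this median. With fewer cells of a type, or less RNA per cell, whole-worm levels would look alike, and these cannot be told apart here.

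**Figure D2:**
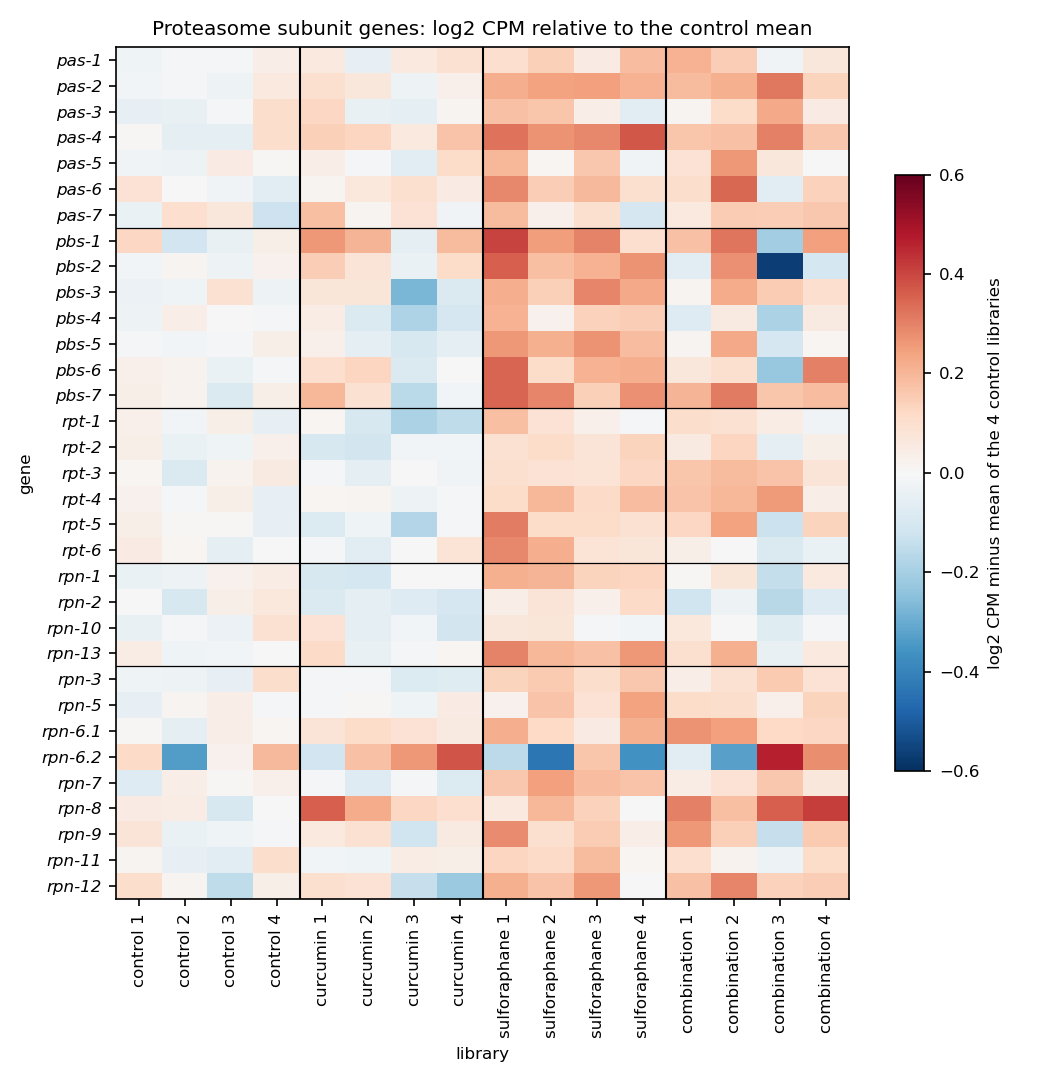
Log2 CPM of each gene in each of the 16 libraries minus the mean of the 4 control libraries (colour), with horizontal lines between the alpha ring, beta ring, ATPase ring, base and lid. Of the 33 genes, 32 lie above the control mean in each of sulforaphane replicates 1 to 3 and 25 in replicate 4, and combination replicate 3 is blue for pbs-1, pbs-2 and pbs-6.

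**Figure D3:**
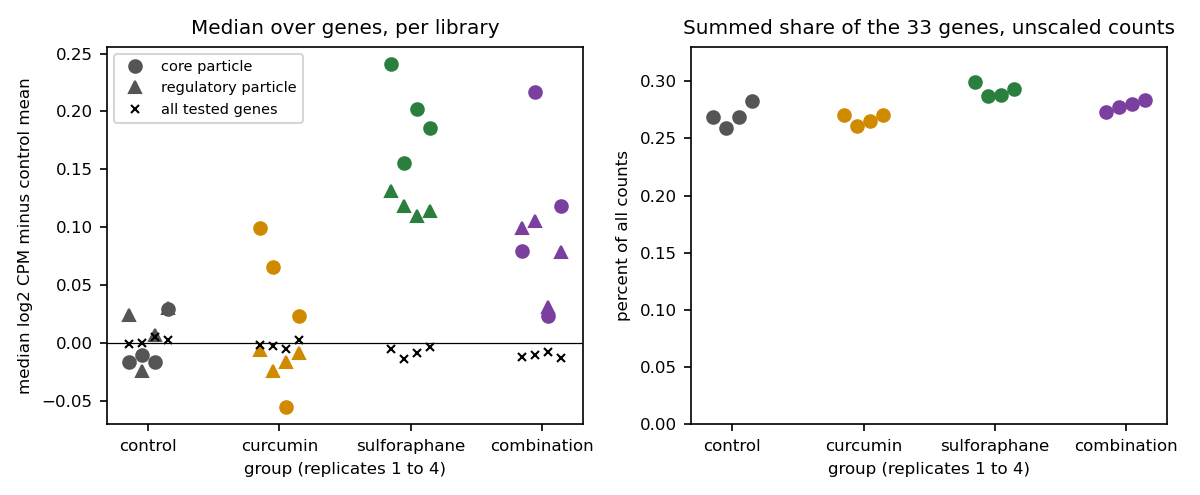
Left, the median log2 CPM relative to the control mean over the core particle genes (circles), the regulatory particle genes (triangles) and all tested genes (crosses) in each library. Right, the summed share of the 33 genes in the unscaled counts, where the sulforaphane libraries (0.287% to 0.299%) lie above the control libraries (0.259% to 0.283%).

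In the alpha ring, which gates the entry to the chamber, sulforaphane raised 2 of 7 genes, pas-4 and pas-2. Of all tested genes, 4.33% were called higher. Expression of pas-4 (chromosome I, 8727218 to 8728487, minus strand, WBcel235) was 45.4, 43.4, 43.4 and 48.7 CPM in control replicates 1 to 4 and 56.6, 54.5, 55.2 and 58.5 CPM with sulforaphane. Every sulforaphane library lay above every control library, and the log2 change was 0.31 ± 0.06 (SE), or 24.2% higher, at an edgeR adjusted p of 0.00212. This was the largest change of the 33 genes under sulforaphane. Expression of pas-2 (chromosome V, 10770368 to 10771351, plus strand) was 75.3, 75.8, 74.8 and 79.3 CPM in control and 88.8, 90.1, 90.6 and 88.3 CPM with sulforaphane. The groups did not overlap, and the log2 change was 0.23 ± 0.06 (SE; edgeR adjusted p = 0.014). The other 5 alpha ring genes had log2 changes of 0.06 for pas-7 to 0.18 for pas-6, none past the test.

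In the beta ring, which holds the proteolytic sites, the median log2 change was 0.23, and pbs-5 and pbs-7 passed the test. The chymotrypsin-like subunit gene pbs-5 (chromosome I, 14719167 to 14720477, minus strand) was at 85.0, 84.6, 85.3 and 87.8 CPM in control and 102.8, 99.2, 103.2 and 97.5 CPM with sulforaphane. The lowest sulforaphane library exceeded the highest control library, and the log2 change was 0.23 ± 0.06 (SE; edgeR adjusted p = 0.0263). The structural subunit gene pbs-7 (chromosome I, 8695205 to 8696301, minus strand) was at 73.8, 73.0, 67.7 and 73.8 CPM in control and 91.9, 88.4, 79.5 and 87.1 CPM with sulforaphane. Control replicate 3 and sulforaphane replicate 3 were the lowest of their groups, and the groups did not overlap (log2 change 0.27 ± 0.07 SE; edgeR adjusted p = 0.0225).

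The other catalytic subunit genes showed differences of similar size that did not pass the test. Expression of pbs-1 (chromosome IV, 1708814 to 1709745, minus strand) was 87.2, 73.8, 77.5 and 81.9 CPM in control and 106.1, 95.3, 98.2 and 85.6 CPM with sulforaphane, so that sulforaphane replicate 4 lay below control replicate 1. Its log2 difference was 0.27 ± 0.09 (SE; edgeR adjusted p = 0.104). Expression of pbs-2 (chromosome I, 12967216 to 12968280, minus strand) was 44.4, 45.5, 44.0 and 45.7 CPM in control and 57.6, 51.0, 51.8 and 54.1 CPM with sulforaphane. Its groups did not overlap, and its log2 difference was 0.26 ± 0.11 (SE; edgeR adjusted p = 0.177). The wide error of pbs-2 came with a spread of 30.3 to 54.4 CPM among the combination libraries, which share the estimate of variance. Without combination replicate 3, both pbs-1 and pbs-2 were among 10 genes called higher with sulforaphane.

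In the regulatory particle, 2 of 19 genes rose with sulforaphane, against 4.33% of all tested genes called higher. The median log2 change was 0.14 against 0.22 in the core particle. Whether the particles differed was not tested. The ubiquitin receptor gene rpn-13 (chromosome III, 6340113 to 6341928, minus strand) was at 75.0, 71.6, 72.0 and 72.8 CPM in control and 89.4, 83.7, 82.2 and 87.1 CPM with sulforaphane. The groups did not overlap, and the log2 change was 0.23 ± 0.06 (SE; edgeR adjusted p = 0.0227). The lid gene rpn-7 (chromosome IV, 9316639 to 9318632, plus strand) was at 149.1, 161.7, 158.0 and 160.6 CPM in control and 176.1, 186.3, 178.7 and 177.3 CPM with sulforaphane. Again the groups did not overlap (log2 change 0.19 ± 0.05 SE; edgeR adjusted p = 0.0322). None of the 6 ATPase ring genes passed the test. All 6 differences were above 0, from 0.08 to 0.17 on the log2 scale, against 46.0% of all tested genes above 0. For 5 of the 6 genes all sulforaphane libraries lay above all controls, against 7.83% of all tested genes.

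Several well-studied regulatory subunits did not pass the test under sulforaphane. The other ubiquitin receptor gene, rpn-10 (chromosome I, 10730712 to 10732424, minus strand), was at 70.5, 72.2, 70.9 and 77.4 CPM in control and 76.3, 76.4, 72.5 and 71.9 CPM with sulforaphane. The groups overlapped throughout, and the log2 difference was 0.03 with a 95% interval of -0.10 to 0.16 (edgeR adjusted p = 0.863). The deubiquitinase gene rpn-11 (chromosome II, 4043062 to 4044330, minus strand) was at 50.8, 48.4, 47.8 and 54.01 CPM in control and 54.9, 54.3, 57.3 and 50.6 CPM with sulforaphane. Sulforaphane replicate 4 fell within the control range, and the log2 difference was 0.11 ± 0.06 (SE; edgeR adjusted p = 0.386).

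The lid gene rpn-6.1, known for its high expression in long-lived germline-deficient worms, was at 109.0, 104.5, 111.7 and 109.6 CPM in control and 126.5, 117.9, 112.6 and 125.9 CPM with sulforaphane. All sulforaphane libraries lay above the controls, but the log2 difference of 0.15 ± 0.06 (SE) had an edgeR adjusted p of 0.146. Its paralog rpn-6.2 was the only gene of the 33 with a lower mean, at 9.17, 6.66, 8.61 and 9.69 CPM in control and 7.57, 6.23, 9.51 and 6.54 CPM with sulforaphane. These ranges overlapped, and the 95% interval of its log2 difference ran from -0.55 to 0.16 (edgeR adjusted p = 0.612).

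The number of genes called under sulforaphane rested on single libraries. It was 2 without sulforaphane replicate 1 (pas-2 and pas-4), 3 without sulforaphane replicate 2 and 10 without combination replicate 3, against 5.48%, 5.0% and 7.46% of all tested genes. It was 11 in the DESeq2 Wald test (8.12% of all tested genes) and 3 when libraries were scaled by total count alone (6.8%), where the median log2 change of the members was 0.11. Only pas-4 was called in every one of these. The summed intestinal markers, at 1117 to 1303 CPM with sulforaphane, overlapped the control range of 975 to 1144 CPM. Of the 5, act-5 passed the test with a log2 change of 0.58 (edgeR adjusted p = 0.000154), and the other 4 lay between -0.11 for vha-6 and 0.07 for ges-1 and did not pass. The part of the act-5 change in the subunit genes was not tested.

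**Figure D4:**
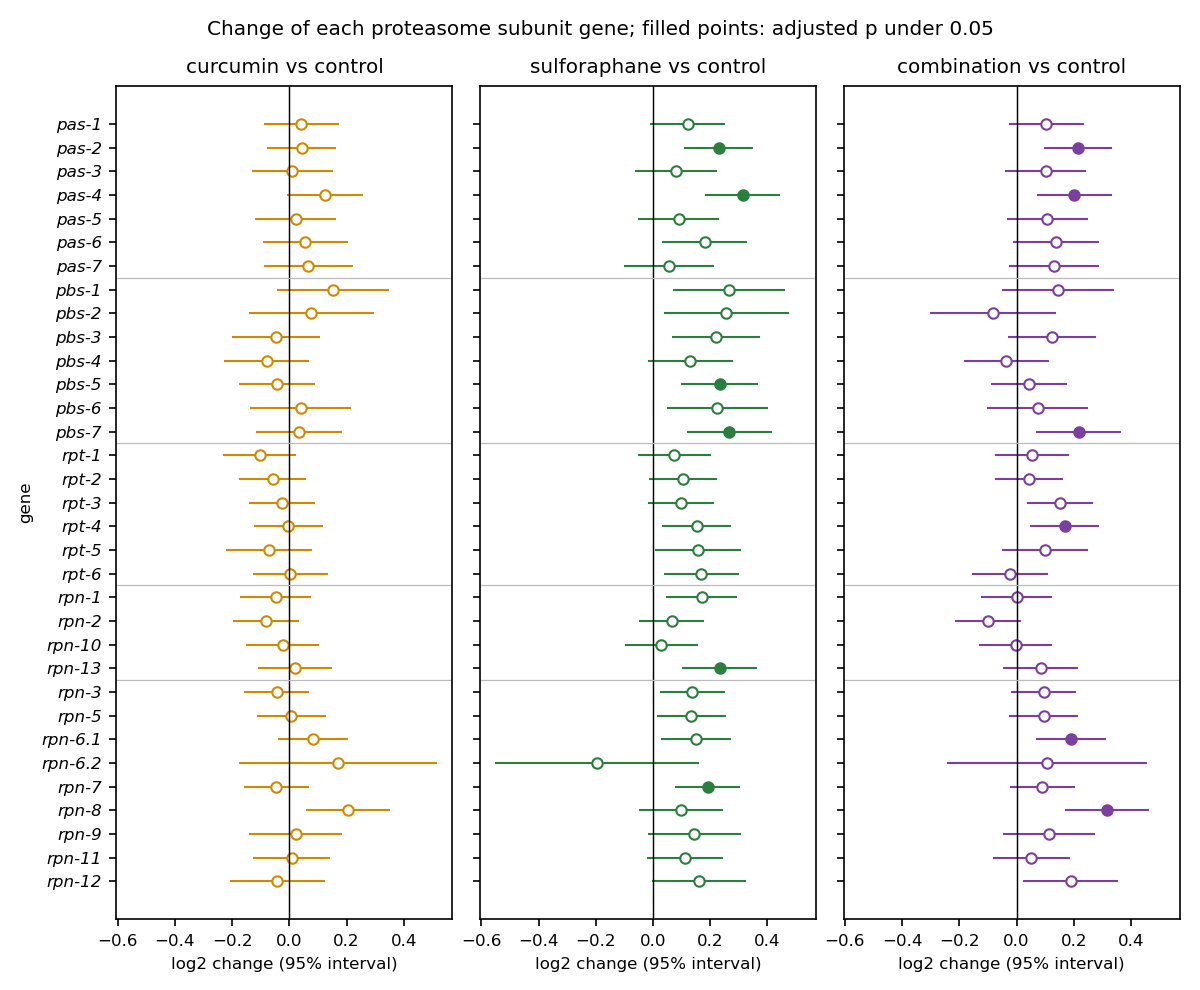
Log2 change of each gene against control with its 95% interval, in 3 panels for curcumin, sulforaphane and the combination. Filled points have an adjusted p under 0.05, which is so for 0, 6 and 6 of the 33 genes. The points for sulforaphane lie right of 0 except that of rpn-6.2.

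Curcumin alone gave no call among the 33 genes. In edgeR 0 of the 33 passed, against 14.6% of all tested genes, and 1 gene had an unadjusted p under 0.05, against 24.3% of all. The DESeq2 Wald test and limma on the FPKM called 1 each, against 15.47% and 13.4% of all. The median log2 change was 0.01, and 28 of the 33 genes lay within 0.1 of 0, against 4930 of all 14328 tested genes. Every 95% interval of the 33 lay within a 1.5-fold change in either direction. The single gene was the lid gene rpn-8 (chromosome I, 4175319 to 4177271, plus strand), the catalytically inactive partner of rpn-11, at 73.9, 73.6, 66.9 and 71.4 CPM in control and 91.6, 83.4, 77.8 and 76.7 CPM with curcumin. All curcumin libraries lay above all controls, and the log2 difference was 0.21 ± 0.07 (SE; edgeR adjusted p = 0.0533). Only rpn-8 and rpn-6.1 had curcumin libraries wholly above control, against 7.72% of all tested genes.

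The catalytic subunit genes overlapped between curcumin and control. With curcumin, pbs-1 was at 95.8, 92.1, 77.0 and 91.2 CPM, a log2 difference of 0.15 ± 0.09 (SE; edgeR adjusted p = 0.360). Replicate 3 was the low library there, as it was for pbs-2, which was at 49.8, 47.4, 43.7 and 48.4 CPM (0.08 ± 0.11 SE; edgeR adjusted p = 0.746). For pbs-5, the curcumin libraries were at 87.5, 82.4, 80.1 and 82.5 CPM (log2 difference -0.04 ± 0.06 SE; edgeR adjusted p = 0.769). Of these only pbs-5 had a mean below control.

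Of the regulatory subunits, rpn-6.1 was at 114.6, 117.2, 115.3 and 113.0 CPM with curcumin, above all controls but differing by only 0.08 ± 0.06 on the log2 scale (SE; edgeR adjusted p = 0.454). The paralog rpn-6.2 was at 7.79, 9.56, 10.1 and 11.03 CPM (0.17 ± 0.17 SE; edgeR adjusted p = 0.614), a range overlapping that of control. Both rpn-10, at 77.1, 69.9, 71.8 and 67.4 CPM (-0.02 ± 0.06 SE; edgeR adjusted p = 0.882), and rpn-11, at 49.6, 49.3, 51.9 and 51.4 CPM (0.01 ± 0.06 SE; edgeR adjusted p = 0.967), also overlapped with control. The remaining genes had log2 differences between -0.10 for rpt-1 and 0.12 for pas-4. The count of calls was 1, rpn-8, without curcumin replicate 3 or 4, sulforaphane replicate 4 or combination replicate 2. In these fits 12.59% to 14.49% of all tested genes were called. Curcumin libraries had lower intestinal marker sums and higher vitellogenin shares than control, and the part of these in the result was not tested.

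The combination raised 6 genes and lowered 0 against the same controls. The 6 called genes stand against 23.1% of all tested genes called and 12.1% called higher. They were pas-2, pas-4 and pbs-7 of the core particle and rpn-8, rpn-6.1 and rpt-4 of the regulatory particle. The median log2 change was 0.10, and 28 of the 33 changes were above 0, against 47.1% of all tested genes. For 9 genes all combination libraries lay above control, against 11.7% of all tested genes. The comparisons with control share the 4 control libraries, so values are set side by side and no overlap of the lists is drawn from them.

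The lid gene rpn-8 had the largest change with the combination. It was at 88.0, 81.0, 91.6 and 95.2 CPM, every library above the control range of 66.9 to 73.9 CPM. The change on the log2 scale was 0.32 ± 0.07 (SE; edgeR adjusted p = 0.0015). With sulforaphane alone it was at 74.5, 81.9, 78.5 and 71.2 CPM, overlapping with control (0.10 ± 0.07 SE; edgeR adjusted p = 0.513). Among the lid genes, rpn-6.1 was at 131.0, 128.7, 118.1 and 118.5 CPM, all above the controls (0.19 ± 0.06 SE; edgeR adjusted p = 0.0194). The ATPase gene rpt-4 (chromosome II, 42207 to 46216, minus strand) was at 92.0, 93.7, 97.6 and 84.1 CPM against 83.1, 81.0, 83.8 and 78.9 CPM in control. Combination replicate 4 exceeded the highest control by a small margin only, and the log2 change was 0.17 ± 0.06 (SE; edgeR adjusted p = 0.0391). Without combination replicate 3 the log2 difference of rpt-4 was 0.12 and did not pass the test (edgeR adjusted p = 0.167). Of all 16 fits that each left out 1 library, only 4 kept the call of rpt-4.

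Of the core genes, pas-2 was at 86.9, 88.4, 95.1 and 83.8 CPM with the combination (log2 change 0.21 ± 0.06 SE; edgeR adjusted p = 0.00767). Its values lay above the control range and around those of sulforaphane alone. For pas-4, the 4 libraries were at 50.7, 51.1, 55.8 and 50.5 CPM (0.20 ± 0.06 SE; edgeR adjusted p = 0.023), and replicate 3 was the highest. Without replicate 3 the log2 difference of pas-4 was 0.15 and did not pass the test (edgeR adjusted p = 0.109). For pbs-7 they were at 83.0, 89.5, 80.8 and 81.8 CPM (0.22 ± 0.07 SE; edgeR adjusted p = 0.0306), again above all controls.

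The catalytic genes did not pass the test with the combination. Expression of pbs-2 was 43.0, 54.4, 30.3 and 41.8 CPM, replicate 2 lying above and the other 3 libraries below the control range. Its log2 difference was -0.08 ± 0.11 (SE; edgeR adjusted p = 0.642) and became 0.03 without replicate 3. Expression of pbs-1 was 90.3, 99.8, 69.1 and 94.9 CPM (0.14 ± 0.09 SE; edgeR adjusted p = 0.310), with replicate 3 again the lowest. Without replicate 3 its log2 change was 0.23, which passed the test at an adjusted p of 0.0466 in edgeR. For pbs-5 the libraries were at 86.6, 100.2, 79.8 and 86.4 CPM (0.04 ± 0.06 SE; edgeR adjusted p = 0.702), on both sides of the control range.

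The remaining fixed members overlapped with control. With the combination rpn-10 was at 76.1, 72.8, 69.1 and 72.5 CPM (log2 difference -0.00 ± 0.06 SE; edgeR adjusted p = 0.982). The deubiquitinase gene rpn-11 was at 53.8, 51.0, 49.2 and 54.2 CPM (0.05 ± 0.06 SE; edgeR adjusted p = 0.636). For rpn-6.2 the libraries spread from 6.72 to 11.7 CPM (0.11 ± 0.17 SE; edgeR adjusted p = 0.715). The count of 6 fell to 3 without control replicate 1 or 3, to 2 without control replicate 2, and to 3 without combination replicate 1 or 2, while it was 5 without combination replicate 3 (pas-2, pbs-1, pbs-7, rpn-6.1 and rpn-8). In these fits 19.98% to 21.91% of all tested genes were called. The count was 7 in the DESeq2 Wald test (23.82% of all tested genes) and 2 with scaling by total count alone (23.97%), where the median log2 change of the members was 0.06. It was 1 when genes with any read were kept (13.46%). The intestinal markers summed to 654 to 725 CPM here, below the control range. Above it were the sums of the 5 neuron markers (456 to 482 CPM against 393 to 408 CPM) and the 5 body-wall muscle markers (1669 to 2296 CPM against 1387 to 1664 CPM). The sums of the 4 pharynx markers (130 to 139 CPM against 90.6 to 161 CPM) and the 4 hypodermis markers (30.3 to 58.5 CPM against 49.7 to 64.1 CPM) overlapped with control. Such sums rest most on genes with many reads, here snb-1 for neurons and unc-54 and unc-15 for muscle. Which single markers differed with the combination was not examined. The part of these sums in the differences of the subunit genes was not tested.

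**Figure D5:**
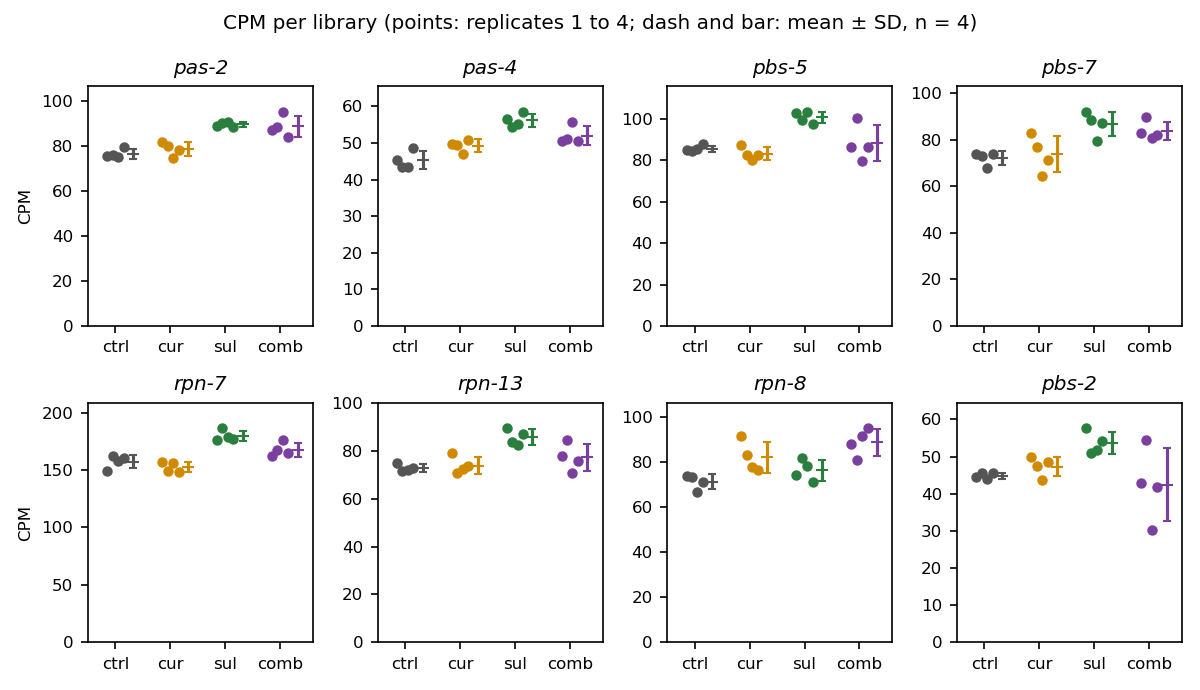
CPM of 8 genes in each of the 16 libraries (points in order of replicates 1 to 4; dash and bar, mean ± SD, n = 4) for control (ctrl), curcumin (cur), sulforaphane (sul) and the combination (comb). The sulforaphane points of pas-2, pas-4, pbs-5, pbs-7, rpn-7, rpn-13 and pbs-2 lie above all control points, rpn-8 is highest with the combination, and pbs-2 reaches down to 30.3 CPM in combination replicate 3.

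The treatments were also compared with each other. The combination held each compound at the dose used alone. Curcumin and sulforaphane were given at different doses by mass, so their comparison was not at matched doses. Against sulforaphane, curcumin gave lower expression of 13 of the 33 genes and higher expression of 0, while 18.1% of all tested genes were called and 10.5% were called lower. The median log2 difference was -0.16, and 30 of the 33 differences were below 0, against 6743 of all 14328 tested genes. For 14 genes all curcumin libraries lay below all sulforaphane libraries, against 12.1% of all tested genes. Among the called genes, the 5 largest log2 differences (± SE) were -0.28 ± 0.06 for pbs-5, -0.27 ± 0.07 for pbs-3, -0.24 ± 0.05 for rpn-7, -0.23 ± 0.07 for pbs-7 and -0.23 ± 0.07 for rpt-5. Their adjusted p from edgeR was 0.00275, 0.0108, 0.00249, 0.0242 and 0.0285 in that order. The paralog rpn-6.2 differed by 0.37 ± 0.17 without passing the test (SE; edgeR adjusted p = 0.155). The beta ring gene pbs-3 (chromosome II, 4954480 to 4955427, minus strand) was at 59.9, 59.9, 47.2 and 53.7 CPM with curcumin and 66.3, 63.0, 70.0 and 66.7 CPM with sulforaphane, without overlap. The ATPase gene rpt-5 (chromosome I, 5741868 to 5743571, minus strand) was at 72.9, 75.8, 68.3 and 76.6 CPM with curcumin and 95.5, 83.3, 83.2 and 82.2 CPM with sulforaphane, also without overlap. By place, 2 alpha ring, 4 beta ring, 3 ATPase ring, 2 base and 2 lid genes were lower. The count was 8 without curcumin replicate 2, 7 without curcumin replicate 3, and 6, 7 and 8 without sulforaphane replicates 1, 2 and 3. In these fits 15.12% to 16.57% of all tested genes were called. Intestinal markers summed to 715 to 801 CPM with curcumin against 1117 to 1303 CPM with sulforaphane. Vitellogenin shares were 21.6% to 23.9% against 19.3% to 20.1%. The part of these in the differences was not tested. The 4 sulforaphane libraries are the same as those compared with control.

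Against sulforaphane alone, the combination lowered 5 genes and raised 1. These calls made up 18.2% of the 33 genes, near the 18.8% of all tested genes called. Of all 14328 tested genes, 1326 were called lower and 1366 higher. The trypsin-like subunit gene pbs-2 differed most among the called genes, by -0.34 ± 0.11 on the log2 scale (SE; edgeR adjusted p = 0.0246), followed by rpn-8, which was higher by 0.22 ± 0.07 (SE; edgeR adjusted p = 0.032). The rpn-8 groups overlapped, from 81.0 CPM with the combination and up to 81.9 CPM with sulforaphane. Of 16 fits that each left out 1 library, the call of rpn-8 was kept in 3 and that of pbs-2 in 13. The ATPase gene rpt-6 (chromosome III, 12370456 to 12372607, plus strand) was at 70.4, 68.6, 64.6 and 66.8 CPM with the combination and 84.0, 79.8, 72.8 and 72.3 CPM with sulforaphane, without overlap (-0.19 ± 0.06 SE; edgeR adjusted p = 0.0357). For pbs-5 the difference was -0.19 ± 0.06 (SE; edgeR adjusted p = 0.0403), with combination replicate 2 inside the sulforaphane range. The scaffold gene rpn-1 (chromosome IV, 6906420 to 6909913, minus strand) was at 144.7, 151.5, 130.6 and 150.1 CPM with the combination and 167.0, 166.2, 158.1 and 157.8 CPM with sulforaphane, again without overlap (-0.17 ± 0.06 SE; edgeR adjusted p = 0.0478). The other scaffold gene, rpn-2, differed by -0.16 ± 0.06 (SE; edgeR adjusted p = 0.042). In all, 4 genes had every combination library below every sulforaphane library, against 10.4% of all tested genes. The count of calls was 0 without combination replicate 3, 0 without sulforaphane replicate 1, 2 without sulforaphane replicate 2 or 3 or without combination replicate 1, and 1 without combination replicate 4. In these fits 15.57% to 17.13% of all tested genes were called. Without combination replicate 3, pbs-2 differed by -0.23 (edgeR adjusted p = 0.0555). Intestinal markers summed to 654 to 725 CPM with the combination against 1117 to 1303 CPM with sulforaphane. Vitellogenin shares were 22.7% to 24.5% against 19.3% to 20.1%. The part of these in the differences was not tested.

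Against curcumin alone, the combination gave no call in the edgeR fit of group means, with 7.32% of all tested genes called. The median log2 difference was 0.09, and 28 of the 33 were above 0, against 50.5% of all tested genes. In edgeR 10 genes had an unadjusted p under 0.05, against 18.1% of all tested genes. The DESeq2 Wald test called 3 and limma on the FPKM called 2, against 8.26% and 6.42% to 6.5% of all tested genes. With a term for the replicate number added to the fit, edgeR called 6, against 10.65% of all tested genes. No label says that equal numbers were handled together. All combination libraries lay above all curcumin libraries for 7 genes, against 6.77% of all tested genes. In the fit of group means the count was 1 without combination replicate 3 (rpt-5) and 2 without combination replicate 4 (rpt-3 and rpt-4), against 6.34% and 6.95% of all tested genes. The widest difference was that of the lid gene rpn-12, 0.23 ± 0.08 (SE; edgeR adjusted p = 0.0884).

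The interaction compared the log2 change of the combination with the sum of those of curcumin and sulforaphane. No gene of the 33 was called in edgeR, against 0.991% of all tested genes, and none by the DESeq2 Wald test or limma on the FPKM. An unadjusted p under 0.05 was found for 3 genes, against 9.05% of all tested genes, all with a combination below the sum: pas-4 (-0.24, 95% interval -0.42 to -0.05; adjusted p = 0.351), pbs-2 (-0.42, -0.73 to -0.11; adjusted p = 0.292) and rpt-6 (-0.19, -0.38 to -0.01; adjusted p = 0.518). The median over the 33 genes was -0.05. The gene pbs-2 was called when combination replicate 2 was left out.

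Genes that work with the proteasome were examined as 4 lists. Their counts stand against 14.6%, 6.71% and 23.1% of all tested genes called under curcumin, sulforaphane and their combination. Of 9 tested genes for proteasome-associated factors, sulforaphane raised 1, rad-23, which carries ubiquitylated proteins to the proteasome (140.0 to 146.4 CPM in control, 160.5 to 164.3 CPM with sulforaphane; log2 change 0.18 ± 0.05 SE; edgeR adjusted p = 0.046). Curcumin changed 0 of the 9 in edgeR, with 1 at an unadjusted p under 0.05, and the combination raised aip-1 (0.28 ± 0.10 SE; edgeR adjusted p = 0.0466) and ubql-1 (0.17 ± 0.06 SE; edgeR adjusted p = 0.0414). The aip-1 groups overlapped (16.0 to 17.8 CPM in control, 17.2 to 23.1 CPM with the combination), and combination replicate 3 was the highest. The ubql-1 groups did not (148.6 to 162.1 CPM and 164.8 to 183.8 CPM). The medians of this list were 0.01, 0.05 and -0.00 under curcumin, sulforaphane and their combination. For these lists edgeR was the only tool run, with all 16 libraries. Their calls were not checked without combination replicate 3 or any other library.

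Of 14 genes for SKN-1A processing and degradation of endoplasmic reticulum proteins, sulforaphane raised 3 and lowered 0. They were skn-1 and the genes for the unfolding ATPase of that pathway, cdc-48.1 and cdc-48.2. The gene skn-1 was at 178.8, 195.4, 199.5 and 204.5 CPM in control and 208.6, 252.7, 247.4 and 239.1 CPM with sulforaphane, without overlap (log2 change 0.28 ± 0.06 SE; edgeR adjusted p = 0.00608). With curcumin it was at 164.4, 166.9, 180.4 and 169.7 CPM, and it fell by 0.19 ± 0.07 on the log2 scale (SE; edgeR adjusted p = 0.0488), although curcumin replicate 3 lay above control replicate 1. With the combination it was at 201.9 to 220.2 CPM, with a log2 difference of 0.13 ± 0.06 (SE; edgeR adjusted p = 0.174). The counts sum all isoforms of skn-1, so they do not give SKN-1A itself. Expression of cdc-48.2 was 124.1 to 130.1 CPM in control and 148.5 to 164.6 CPM with sulforaphane (0.28 ± 0.06 SE; edgeR adjusted p = 0.0059), and that of cdc-48.1 was 263.2 to 296.5 CPM and 311.1 to 333.5 CPM (0.23 ± 0.06 SE; edgeR adjusted p = 0.0167). Curcumin lowered 2 of the 14, skn-1 and the ubiquitin ligase gene hrdl-1 (-0.20 ± 0.07 SE; edgeR adjusted p = 0.0494), and the combination lowered 1, hrdl-1 (-0.22 ± 0.07 SE; edgeR adjusted p = 0.0158).

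Of 23 tested genes for ubiquitin and the enzymes that activate and conjugate it, sulforaphane changed 0 in edgeR, with 4 at an unadjusted p under 0.05, against 18.4% of all tested genes. Curcumin lowered the polyubiquitin gene ubq-1 from 1096.8 to 1250.5 CPM in control to 985.5 to 1083.6 CPM (log2 change -0.19 ± 0.06 SE; edgeR adjusted p = 0.0268). Curcumin also raised the conjugating enzyme gene ubc-23 (0.39 ± 0.10 SE; edgeR adjusted p = 0.0115). With the combination ubc-23 rose further, from 11.9 to 14.6 CPM in control to 22.1 to 27.6 CPM (0.90 ± 0.10 SE; edgeR adjusted p = 2.385e-07), while ubc-15 (-0.33 ± 0.08) and ubc-25 (-0.23 ± 0.08) fell. For ubc-15 the groups did not overlap (42.5 to 46.3 CPM in control, 30.1 to 39.1 CPM with the combination). For ubc-25 they overlapped, at 122.0, 93.9, 84.5 and 96.5 CPM in control replicates 1 to 4 and 77.2 to 88.0 CPM with the combination. Between the combination and curcumin the difference of ubc-23 was 0.51 ± 0.10 (SE; edgeR adjusted p = 0.00127). None of the 6 tested genes of the COP9 signalosome, a complex built like the lid, was called in any comparison with control, and the count at an unadjusted p under 0.05 was 0, 0 and 1 for curcumin, sulforaphane and their combination, against 24.3%, 18.4% and 33.2% of all tested genes.

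Some counts cannot be assigned with certainty. Of the 33 genes, 12 overlap another gene and 8 overlap one whose counts exceed 1% of their own, in all 8 cases on the opposite strand, and the strandedness of the counting is not given in the sources used here. These 8 are pas-7, pbs-3, pbs-4, rpt-2, rpt-4, rpt-6, rpn-10 and rpn-11. For rpt-4, which shares 1177 bases with rpoa-49, the neighbour's counts amount to 15.3% of its own. It also shares 1011 bases with nfyc-1, whose counts amount to 7.17% of its own. The ratio was 42.6% for rpt-2 with fos-1, over 25 shared bases, and 24.6% for rpn-11 with pqn-48, over 9 shared bases. The overlap of pas-7 with the highly expressed lact-2 is 4 bases long.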

How the data were processed

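Raw read counts per gene and FPKM values were deposited by the authors, with 1 column per library for 16 libraries. HISAT2 2.0.5, StringTie 1.3.3b, featureCounts 1.5.0-p3, DESeq2 1.20.0 and genome build WBcel235 are named per the submitters' processing notes, without their roles. The deposited FPKM values equal the count over the gene length and 1 depth per library, which was 0.95 to 1.07 times the total count.

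The counts were analysed with edgeR 4.0.16 in R 4.3.3. Genes were kept by filterByExpr (minimum count 10, minimum total 15), which left 14328, and scaled by TMM. The quasi-likelihood fit took all 16 libraries and gave each group its own mean. Every pair of groups and the interaction were compared by two-sided F tests with Benjamini-Hochberg adjustment over all tested genes. Calls were made at an adjusted p under 0.05. The SE is the log2 change divided by the square root of F, and 95% intervals use 23.51 degrees of freedom. CPM values are relative to the TMM-scaled library size, and for log2 CPM the prior count was 2. DESeq2 1.42.0, limma 3.58.1 on log2(FPKM + pseudocount), other scalings and filters, and leaving out each library were tried as alternatives. Groups follow the sample titles.

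The members, the lists of related genes and the tests were chosen with earlier results of these data known. In each comparison up to 5 called members with the largest log2 change are described in full, and pbs-1, pbs-2, pbs-5, rpn-6.1, rpn-6.2, rpn-10 and rpn-11 against control in any case. In the lists, up to 4 called genes and skn-1 are named. A planned search for motifs in promoters was not made, and no sequence was used here. Of the listed genes, psme-3, csn-7 and csn-8 had no match by name, and ubc-21 and ubc-24 did not pass the filter. Intervals cover the spread between libraries, with 4 per group.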

Additional observations from a re-analysis of the deposited data

Results flagged for a closer look

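In 6 of 132 groups of 4 libraries, 1 library's CPM stood far from the other 3 by Dixon's criterion, which chance alone meets in about 1 group in 20. Expression of pas-4 was 55.8 CPM in combination replicate 3 and 50.5 to 51.1 CPM in the other 3 libraries. For pas-7, combination replicate 1 was at 36.9 CPM, below 39.2 to 39.6 CPM. Control replicate 3 was high for pbs-3, at 60.7 CPM against 55.6 to 56.0 CPM, and low for pbs-7, at 67.7 CPM against 73.0 to 73.8 CPM. Sulforaphane replicate 1 was at 95.5 CPM for rpt-5, above 82.2 to 83.3 CPM. Control replicate 4 was at 188.4 CPM for rpn-3, above 169.4 to 172.0 CPM. The cause of each was not tested.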

How the results depend on the processing

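The values below count called members unless a log2 change is named, and the cause of each shift was not tested. Apart from the 1.5-fold setting, the share of all tested genes called also varied. It was 8.58% to 18.17% for curcumin, 4.81% to 10.25% for sulforaphane and 13.46% to 27.78% for the combination against control. For the combination against curcumin it was 4.91% to 10.65%, and against sulforaphane 10.66% to 22.75%. For curcumin against sulforaphane it was 10.23% to 22.06%, and for the interaction 0.6% to 2.22%. For curcumin against control, 1 member (rpn-8) was called with DESeq2 size factors, with TMM without vitellogenin genes, with a filter of at least 10 counts per sample, in the DESeq2 Wald test, with the replicate block and in both limma fits, and 0 to 1 when single libraries were left out. For sulforaphane against control the count was 3 with library size alone (median log2 change 0.11), 11 in the DESeq2 Wald test, 11 with only the groups compared, 0 at 1.5-fold, and 2 to 10 without single libraries. For the combination against control it was 2 with library size alone (median 0.0559), 1 with a filter of at least 1 read, 0 at 1.5-fold, and 2 to 7 without single libraries. For the combination against curcumin it was 3 in the DESeq2 Wald test, 6 with the replicate block, 2 in both limma fits and 0 to 2 without single libraries. For the combination against sulforaphane it was 3 with TMM without vitellogenin genes, 1 with at least 1 read, 0 at 1.5-fold, and 0 to 7 without single libraries. For curcumin against sulforaphane it was 7 with library size alone, 6 with at least 1 read, 0 at 1.5-fold, and 6 to 16 without single libraries. The interaction had 1 called member with at least 1 read (median -0.10), and 0 to 1 without single libraries, with medians of -0.0954 to -0.0464.

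Medians without single libraries were -0.01 to 0.03 for curcumin, 0.13 to 0.17 for sulforaphane and 0.09 to 0.11 for the combination against control, and 0.06 to 0.10, -0.08 to -0.02 and -0.18 to -0.14 for the combination against curcumin, the combination against sulforaphane and curcumin against sulforaphane.

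Among the members followed through every alternative, the direction turned in these cases. With library size alone it turned for rpn-11 with curcumin (-0.0091), rpn-10 with sulforaphane (-0.0116) and pbs-5 with the combination (-0.0060). For rpn-10 with the combination it was 0.0041 with DESeq2 size factors, 0.01002 with TMM without vitellogenin genes, 0.0043 in the DESeq2 Wald test, and 0.0041 in both limma fits. Without single libraries, the range was -0.0605 to 0.0171 for rpn-10 and -0.0104 to 0.0542 for rpn-11 with curcumin, and -0.226 to 0.0300 for pbs-2, -0.0255 to 0.0725 for pbs-5, -0.0311 to 0.0176 for rpn-10 and -0.0424 to 0.227 for rpn-6.2 with the combination.

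The titles give every group replicate numbers 1 to 4 and do not say that equal numbers were handled together. Over 24 pairs of equal number, the correlation of residuals across genes was 0.0071 to 0.210 (mean 0.109), with 12 pairs over 0.1. Over 72 pairs of unequal number it was -0.187 to 0.178 (mean -0.036), with 2 pairs over 0.1. Of the 16 libraries, 14 correlated best with their own number. Libraries of equal number were thus more alike on average, but as no label names a pairing, the main fit did not include it. With the replicate block 1 member was called for curcumin, 9 for sulforaphane and 8 for the combination against control, and 6, 6 and 17 for the combination against curcumin, the combination against sulforaphane and curcumin against sulforaphane, with 0 for the interaction.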

Other observations

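Over the 4 groups, the highest mean CPM was in sulforaphane for 24 of the 33 genes, in the combination for 8 (pas-3, pas-5, pas-7, rpt-3, rpt-4, rpn-6.1, rpn-8 and rpn-12) and in curcumin for 1 (rpn-6.2). The lowest mean was in control for 16 genes, in curcumin for 13, in the combination for 3 and in sulforaphane for 1. All 7 alpha ring genes had their lowest mean in control, and 5 of the 6 ATPase ring genes had theirs in curcumin. No test was made of these orders.

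Nearby genes on the same strand were also read. Within 500 bases, 15 of the 33 genes had 19 coding neighbours on their own strand, of which 16 were tested. With sulforaphane the median log2 change was -0.10 for the neighbours and 0.14 for those 15 members, and 1 neighbour was called, dhs-22 next to pas-1 (0.30; edgeR adjusted p = 0.0135). The neighbour of rpn-13, let-767, which encodes an enzyme of steroid and fatty acid metabolism, was called with curcumin (0.67; edgeR adjusted p = 2.434e-08) and with the combination (0.70; edgeR adjusted p = 6.697e-09), while rpn-13 was called with neither. These were the 1 neighbour called with curcumin and 1 of the 2 called with the combination. The other was F23F12.8 next to rpt-3 (1.23; edgeR adjusted p = 0.0288).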
